A study of Mus musculus with 2 samples.

Results

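C/D box small nucleolar RNAs (snoRNAs) that lie outside protein-coding genes were examined in the non-polyadenylated (NPA) RNA of mouse embryonic stem cells (ESCs) and of neuronal progenitor cells (NPCs) derived from them. GENCODE release M1, which annotates mm9, holds 37310 genes, of which 1552 are of type snoRNA and 346 carry a name that starts with snord. Of these, 244 are not wholly within a protein-coding gene on the same strand. Genes named SNORD3, SNORD13, SNORD14 or SNORD118 (2 genes) and the genes inside Snhg1, Gas5 and Snhg12 (18 genes) were left out, which left 224. The genes described were chosen by their reads, at least 10 in the ESC and NPC libraries together, which 53 of the 224 had. They carry 13 names, and 10 of them belong to an imprinted array on chromosome 12 and 29 to another on chromosome 7. Of the other genes, 104 had 1 to 9 reads and 67 had 0.

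Both libraries come from R1, a male mouse ESC line, with 1 library for each cell type. The ESC library was made from cells at passage 18 that were grown with leukemia inhibitory factor on feeder fibroblasts treated with Mitomycin C. For the NPC library, R1 cells were kept for 4 days as embryoid bodies without that factor, replated on poly-L-ornithine and fibronectin, and gathered on day 7. In both, polyadenylated RNA was depleted on oligo(dT) beads and ribosomal RNA with a RiboMinus kit, and fragments were sequenced strand-specifically on a SOLiD 3 machine. The deposited placements total 4271306 reads for ESCs and 4399729 for NPCs, so that 1 read equals 0.234 and 0.227 RPM, the count of reads scaled to a library of 1000000.

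No replicate was available to check a difference, so each ratio sets 1 library against the other and nothing was tested between ESCs and NPCs. Values in brackets are 95% intervals, conditional binomial for a ratio of RPM and Clopper-Pearson for a share. Repeated reads carry no molecular identifier, and these intervals cover counting error only. Fewer cells of a type and less RNA per cell cannot be told apart in such libraries.

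C/D snoRNAs are short nuclear RNAs named after 2 conserved motifs, box C near the 5′ end and box D near the 3′ end, which bind the proteins fibrillarin, Nop56, Nop58 and Nhp2l1. Most guide the 2′-O-methylation of ribosomal RNA by base pairing next to box D, a few guide small nuclear RNAs, and orphan members have no known target of this kind. Most are cut out of introns by exonucleases that stop at the bound proteins, so that the ends of the RNA lie a few bases outside the boxes. In mammals large tandem arrays of orphan C/D snoRNAs lie in imprinted regions, where SNORD113 and SNORD114 genes follow Meg3 on the maternal chromosome and SNORD115 and SNORD116 genes follow Snrpn on the paternal one, the latter being mainly known from neurons.

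The sequences of the genes on which the results turn are shown 5′ to 3′ from mm9, with box C (TGATGA) and box D (CTGA) in capitals. The search took the motif nearest to the 5′ end within the first 20 bases and the one nearest to the 3′ end within the last 20 bases of the annotated gene, on its strand. The first 5 lines are single-copy genes with many reads.
Snord89, chr1:39605590-39605699, minus strand: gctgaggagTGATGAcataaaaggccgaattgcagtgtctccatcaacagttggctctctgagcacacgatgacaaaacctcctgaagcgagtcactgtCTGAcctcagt
Snord7, chr11:83107806-83107902, plus strand: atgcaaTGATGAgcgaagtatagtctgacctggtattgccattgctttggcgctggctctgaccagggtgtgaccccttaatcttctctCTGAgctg
SNORD60, chr17:24665421-24665498, plus strand: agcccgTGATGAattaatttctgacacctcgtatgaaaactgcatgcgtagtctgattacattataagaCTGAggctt
Snord49a, chr11:62416952-62417023, plus strand: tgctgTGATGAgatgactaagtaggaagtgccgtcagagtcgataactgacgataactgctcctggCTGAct
Snord104, chr11:106362307-106362376, plus strand: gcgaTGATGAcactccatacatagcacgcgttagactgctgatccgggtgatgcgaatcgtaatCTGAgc

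Next are SNORD50 copies 1 and 2, which differ at base 50, then the most abundant SNORD113 genes and 1 gene of each array on chromosome 7. The SNORD116 line holds the sequence that 18 of the 25 SNORD116 genes share. In SNORD113 copy 17 the marked CTGA is followed by 15 bases, against 7 in copy 8. It is the match that the search found, and whether it acts as box D was not tested.
SNORD50 copy 1, chr9:88416367-88416438, minus strand: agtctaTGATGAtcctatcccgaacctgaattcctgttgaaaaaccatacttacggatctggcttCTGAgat
SNORD50 copy 2, chr9:88416635-88416706, minus strand: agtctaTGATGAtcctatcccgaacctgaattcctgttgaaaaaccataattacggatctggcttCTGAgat
SNORD113 copy 8, chr12:110887827-110887898, plus strand: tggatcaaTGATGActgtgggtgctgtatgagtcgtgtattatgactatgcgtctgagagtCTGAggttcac
SNORD113 copy 17, chr12:110923172-110923244, plus strand: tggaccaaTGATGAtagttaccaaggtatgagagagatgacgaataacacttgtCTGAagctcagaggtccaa
SNORD115 copy 93, chr7:66792498-66792576, minus strand: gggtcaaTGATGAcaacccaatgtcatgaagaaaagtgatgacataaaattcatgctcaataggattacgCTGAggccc
SNORD116 copy 3, chr7:66933879-66933972, minus strand: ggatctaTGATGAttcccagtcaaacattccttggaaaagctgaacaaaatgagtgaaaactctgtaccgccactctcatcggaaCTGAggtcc

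Where a name is used for several genes, copies are numbered along the chromosome among all 224 genes. The rule did not search for motifs, but it took genes already annotated as C/D snoRNAs, a class named after these boxes. Their presence is therefore no independent evidence. TGATGA stood in the first 20 bases of 53 of the 53 genes and CTGA in the last 20 bases of 52. SNORD12 was without the latter. Among the 224 genes regardless of reads, 84.4% held TGATGA and 92.0% CTGA in these stretches. H/ACA snoRNA genes, the other class of guide RNA, held them in 0.485% and 10.9%, and 20-base windows of chromosome 19 on both strands in 0.478% and 9.03%.

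The 53 genes held 20439 reads in the ESC library and 25304 in the NPC library. This is a share of 0.479% (0.472 to 0.485%) of all reads in ESCs and 0.575% (0.568 to 0.582%) in NPCs. Over the same libraries, 91 C/D snoRNA genes inside protein-coding genes had shares of 3.81% (ESCs) and 2.89% (NPCs), and 30 H/ACA snoRNA genes outside protein-coding genes 4.38% and 0.839%. The share of the 53 genes was thus higher in NPCs where both others were lower, but it rests on few genes. Counting every start position only once turned the direction, to 0.0162% in ESCs and 0.0141% in NPCs. In most of these genes most reads begin at 1 base, so that this count compares start positions and cannot decide a difference in abundance. Snord89 alone gained more reads than the whole set, and the top 5 genes made up 76.9% of the set in ESCs and 83.3% in NPCs.

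Taken gene by gene, 32 of the 53 genes had a higher RPM in NPCs and 21 a lower one. Over all 14859 genes with at least 10 reads, 62.9% were higher and 37.1% lower, and the median of their log2 ratios (NPC over ESC, 1 read added to each count) was 0.34. The median over the 53 genes was 0.19, which is 0.15 below that of all genes. Scaling by the median of ratios over genes, which removes this shift, turned the split to 23 higher and 30 lower. The counting intervals of the ratio lay above 1 for 6 genes and below 1 for 15, and held 1 for the other 32.

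More than 2-fold apart, with 1 read added, were 10 genes that were lower in NPCs and 3 that were higher. Over all genes 12.8% were lower and 24.6% higher by this measure, against 18.9% and 5.66% of the 53. The 4 SNORD115 genes reached 10 reads through their ESC reads, and without them 6 of 49 genes, or 12.2%, were lower, close to the share over all genes. Scaled by the median of ratios, the counts were 15 lower and 2 higher. The 10 were Snord104, SNORD12, the 4 SNORD115 genes and SNORD113 copies 4, 11, 15 and 18, and the 3 were Snord89, Snord7 and SNORD116 copy 17. The median depends on how copies are counted, since 25 of the 53 genes are SNORD116 copies. With reads summed by name, 7 of the 13 names were lower in NPCs and 6 higher, and the median log2 ratio was -0.40.

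**Figure D1:**
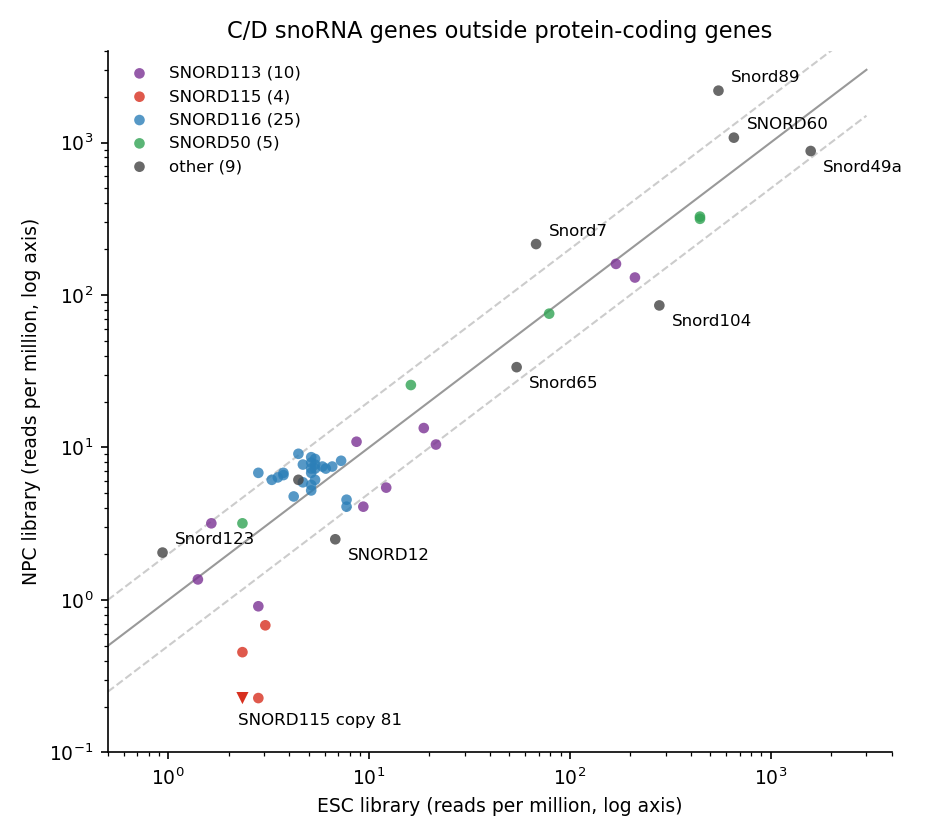
RPM of each of the 53 C/D snoRNA genes in the ESC library (x axis) and the NPC library (y axis), both on log axes, with names coloured. The solid line marks equal RPM and the dashed lines a 2-fold difference, and the triangle is SNORD115 copy 81, with 0 NPC reads, drawn at the level of 1 read. RPM is drawn without an added read. Snord89, Snord7, Snord123 and SNORD116 copies 13 and 17 lie above the upper dashed line. Snord104, SNORD12, the SNORD115 genes and SNORD113 copies 4, 11, 15 and 18 lie below the lower one. The SNORD116 genes form a cloud mostly above the solid line.

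**Figure D2:**
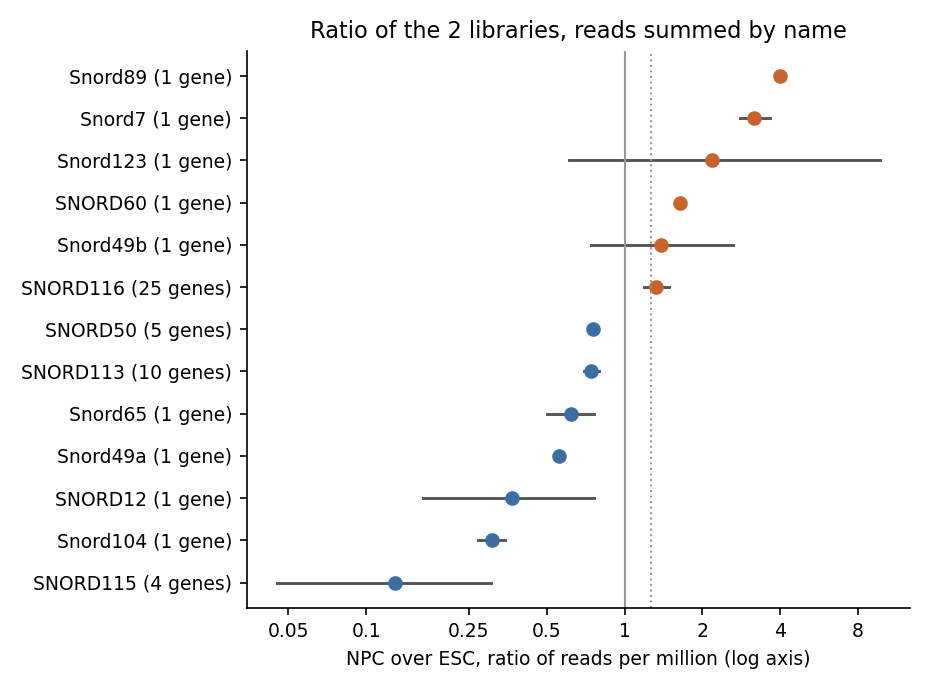
Ratio of NPC to ESC RPM on a log axis for each of the 13 names, with reads summed over the genes of the name, points for the ratio and bars for its 95% counting interval. The solid line is a ratio of 1 and the dotted line the median of all genes. The bars of Snord123 and Snord49b cross 1, and the other 11 do not.

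Of 8 neural progenitor genes found, 5 had at least 10 reads. Pax6, Zic1 and Pax3 were more than 2-fold higher in NPCs, with 12, 22 and 13 NPC reads. Nes had 66 ESC and 121 NPC reads, a ratio of 1.78 (1.31 to 2.44), and Sox2, which ESCs express too, was more than 2-fold lower. The summed level of the list was 222 RPM in ESCs and 70.2 RPM in NPCs. Sox2 alone made up 206 and 30.5 RPM of this and sets the direction of the sum. Pax3, Fabp7 and Neurog2 had 0 ESC reads. All 11 genes of a list for extraembryonic endoderm were more than 2-fold higher in NPCs, with a sum of 539 RPM in ESCs and 12321 RPM in NPCs. Of 8 pluripotency genes, 8 were lower in NPCs, 6 of them more than 2-fold, and Pou5f1 had 2623 ESC and 724 NPC reads. Of 5 feeder fibroblast genes with at least 10 reads, 1 was more than 2-fold lower and 1 higher, and the list summed to 42.8 and 57.7 RPM. The part of these cell types in the snoRNA levels was not tested.

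Among single genes, Snord89 had the most reads in the NPC library. It lies in an intron of the noncoding transcript Gm15832 on chromosome 1. Snord89 was covered by 2348 reads in ESCs and 9634 in NPCs, or 550 and 2190 RPM. The ratio of 3.98 (3.81 to 4.17) was the highest of all genes of the set. These reads began at only 15 and 14 distinct positions, 95.1% and 94.6% of them at 1 base. When each position was counted once the log2 ratio turned to -0.36. That value compares positions and cannot decide a difference in abundance. Per length of gene, its level was 4997 RPKM in ESCs and 19906 RPKM in NPCs (RPM per kilobase of gene), the highest of the set in NPCs.

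Snord7, which guides a methylation of U6 small nuclear RNA, lies on chromosome 11 with no annotated host transcript on its strand. The nearest gene downstream on this strand, the protein-coding Ap2b1, starts 8083 bases away. Snord7 had 290 reads in ESCs and 950 in NPCs, a ratio of 3.18 (2.79 to 3.64). With each of its 11 and 14 start positions counted once, the log2 ratio went from 1.67 to 0.051 and was no longer past 2-fold. An exact match to mm9 was found for only 8 ESC and 23 NPC reads. Counting gene bases from 1 at its annotated 5′ end, the remaining reads shared 1 difference, C29T, in 282 of the 286 ESC reads that covered this base (98.6%, 96.5 to 99.6%) and in 927 of 942 NPC reads (98.4%, 97.4 to 99.1%). No other gene of the set with at least 100 reads in a library had a difference from mm9 in more than 1.66% of the reads. This comparison was made after the values were seen, and the origin of the difference was not tested.

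SNORD60, a guide of the large ribosomal RNA, lies opposite Rab26 on chromosome 17. It was among the 3 genes with the most reads in both libraries, with 2802 ESC and 4737 NPC reads. Its ratio was 1.64 (1.57 to 1.72). A minority of its reads began inside the RNA, at base 24, which held 513 reads or 10.8% of those in NPCs and was the second most frequent start there.

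Snord104, also a guide of the large ribosomal RNA, had the lowest ratio of any gene with at least 100 reads in a library. Its 1192 ESC reads and 376 NPC reads equal 279 and 85.5 RPM, a ratio of 0.306 (0.272 to 0.344). The nearest protein-coding genes on its strand lie 123879 bases upstream and 250141 bases downstream. SNORD12 on chromosome X, the gene without the box D motif, had 29 and 11 reads and a ratio of 0.368 (0.166 to 0.759). It carries the name of a guide of the large ribosomal RNA, and whether this gene acts as one was not tested. With each start position counted once, which compares positions rather than reads, the log2 ratio was -1.10 for Snord104 and -0.27 for SNORD12. SNORD12 was then no longer past 2-fold. Most Snord104 reads, 83.4% in ESCs and 81.9% in NPCs, begin at the base just before the annotated gene. When only reads that begin within the gene were counted, its log2 ratio went from -1.70 to -0.73, no longer past 2-fold.

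The noncoding gene 2410006H16Rik on chromosome 11 holds Snord49b, Snord49a and Snord65 in its introns. Snord49a, a guide of the large ribosomal RNA, was the gene with the most reads in ESCs, 6761 against 3872 in NPCs, and its ratio was 0.556 (0.534 to 0.578). Snord65, a guide of the small ribosomal RNA, had 232 and 148 reads and was 1.61-fold lower in NPCs (1.31 to 2.00). When only reads that begin within the annotated gene were counted, the log2 ratio of Snord65 went from -0.69 to -1.40. Snord49b, which lies 299 bases upstream of Snord49a and shares its name and target class, had only 19 and 27 reads, and its interval of 0.739 to 2.63 held 1. The intervals of Snord49a and Snord65 overlapped, so that no difference between these neighbours was detectable at this depth.

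SNORD50, a guide of the large ribosomal RNA, has 5 copies on chromosome 9, of 3 different sequences. Copies 1 and 2 lie in introns of Snhg5, copy 4 in an intron of 9330159M07Rik, copy 5 in an intron of Gm17683 and copy 3 in an exon of 9430037G07Rik. Together they had 4215 reads in ESCs and 3288 in NPCs, a ratio of 0.757 (0.723 to 0.793). Of these reads 97.5% in either library occur more than once in mm9, each time within SNORD50 genes, so the sum is firmer than the values of the copies. Copies 2 and 4 are identical over 72 bases and received 1900 and 1899 reads in ESCs, and 1391 and 1438 in NPCs. Copies 1 and 5 differ from copy 2 by A50C, counted from the 5′ end of the gene with the base of copy 2 first, and copy 3 by A43G and A50C. Copy 1 had 69 and 113 reads, copy 5 had 337 and 332, and copy 3 had 10 and 14.

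The base at position 50 separates the copies in the minority of reads whose deposited bases reach it. In ESCs 433 of the 459 such reads carried A, or 94.3% (91.8 to 96.3%), and 25 carried C. In NPCs 374 of 415 carried A, or 90.1% (86.8 to 92.8%), and 40 carried C. Every one of these A reads was placed at copy 2 or 4 and every C read at another copy. Most reads begin at base 2, and the 48 deposited bases then end at base 49. Of these reads 90.0% in ESCs and 86.1% in NPCs were placed at copies 2 and 4 rather than at copies 1 and 5. Among reads that begin at base 3, and so cover base 50, the shares were 94.1% and 85.8%. The paper states that reads of 50 nt were aligned, so the aligner may have seen bases that are not among the 48 deposited. Whether base 50 was among them was not tested. The sequences of copies 1 and 5 are identical, and the reads that begin at base 2 were nevertheless split 64 to 308 in ESCs and 97 to 298 in NPCs. How the aligner chose between copies 1 and 5 was not tested.

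Compared per length of gene, levels spanned a wide range within the set. In ESCs the order was led by Snord49a with 21985 RPKM, SNORD60 with 8410, SNORD50 copies 2 and 4 with 6178 and 6175, and Snord89. In NPCs Snord89 was followed by SNORD60 with 13803 RPKM, Snord49a with 12223 and SNORD50 copies 4 and 2 with 4539 and 4391. The identical copies 2 and 4 of SNORD50 cannot be ordered. Over all 53 genes the median was 57.3 RPKM in ESCs and 77.4 RPKM in NPCs, so that most of the set stood far below these few genes.

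The array on chromosome 12 contributed 10 members, all named SNORD113 in this annotation, of 22 copies. It gave 1952 reads in ESCs and 1496 in NPCs, a ratio of 0.744 (0.695 to 0.796). Lower in NPCs were 8 of the 10 genes, where 37.1% of all genes with at least 10 reads were. The median log2 ratio of the 10 genes was -0.59. The 10 sequences all differ, with a median identity of 45.2% between copies of equal length compared base by base without gaps. The share of reads whose sequence occurs once in mm9 was 97.7% in ESCs and 97.9% in NPCs. The copies can therefore be read one by one.

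SNORD113 copies 8 and 17 held most of the reads of this array. Copy 8 had 725 and 704 reads, and the interval of its ratio of 0.943 (0.849 to 1.05) held 1. Copy 17 had 901 and 573 reads and a ratio of 0.617 (0.555 to 0.686), which does not overlap the interval of copy 8. When each start position was counted once, the log2 ratio of copy 17 turned to 0.21, which compares only 4 and 6 positions and not reads. Copy 17 thus had more reads than copy 8 in ESCs and fewer in NPCs.

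Of the remaining SNORD113 genes, copies 4, 11 and 15 were lower in NPCs with intervals below 1, at 92 and 46, 40 and 18, and 52 and 24 reads. Copy 7 had 80 and 59 reads, and copy 9 had 37 and 48. Copies 2, 14 and 18 had 4 to 14 reads per library. Copies 2 to 11 lie within the body of the lincRNA Rian, where copies 7 and 8 coincide with annotated exons and the others with introns, and copies 14 to 18 lie 19091 to 25089 bases downstream of Rian and upstream of Mirg.

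On chromosome 7 the orphan arrays SNORD116 and SNORD115 went in different directions. The 25 SNORD116 genes had 550 reads in ESCs and 750 in NPCs, a ratio of 1.32 (1.18 to 1.48). Higher in NPCs were 23 copies, and 2, copies 4 and 11, were lower. Over all genes with at least 10 reads, 62.9% were higher. Relative to the median of all genes SNORD116 hardly differed between libraries, at 0.069 on the log2 scale. Single copies had 12 to 33 reads in ESCs (median 22) and 18 to 40 in NPCs (median 30). These are not 25 measurements. All 25 genes are identical from base 3 to base 50, none of their reads occurs once in mm9, and the variance of the reads over copies was 1.34 times the mean in ESCs and 1.08 times in NPCs, where Poisson counts have a value of 1. SNORD116 copy 17, one of the 3 genes more than 2-fold higher, is 1 of these copies, with 12 and 30 reads, and the intervals of 22 of the 25 copies held 1.

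SNORD115, which is complementary to the pre-mRNA of the serotonin receptor Htr2c, had 137 copies outside protein-coding genes, and only 4 reached 10 reads. Copy 37 had 13 and 3 reads, copy 81 had 10 and 0, copy 93 had 12 and 1, and copy 95 had 10 and 2. A count of 0 allows up to 3 reads in the library, and against this limit copy 81 was at least 3.43-fold higher in ESCs. The interval that also covers the error of its ESC reads begins at 2.31-fold, and none of these reads has a sequence that occurs once. The 4 genes summed to 45 and 6 reads, a ratio of 0.129 (0.0451 to 0.304), but they passed the minimum through their ESC reads. All 137 copies, of which 43 had 0 reads, summed to 281 and 101 reads, a ratio of 0.349 (0.275 to 0.440). The ESC reads of the 4 genes at sequences that occur once were the 13 of copy 37. The summed reads of SNORD115 and SNORD116 over all their copies thus had ratios of 0.349 and 1.33, with intervals that do not overlap.

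**Figure D3:**
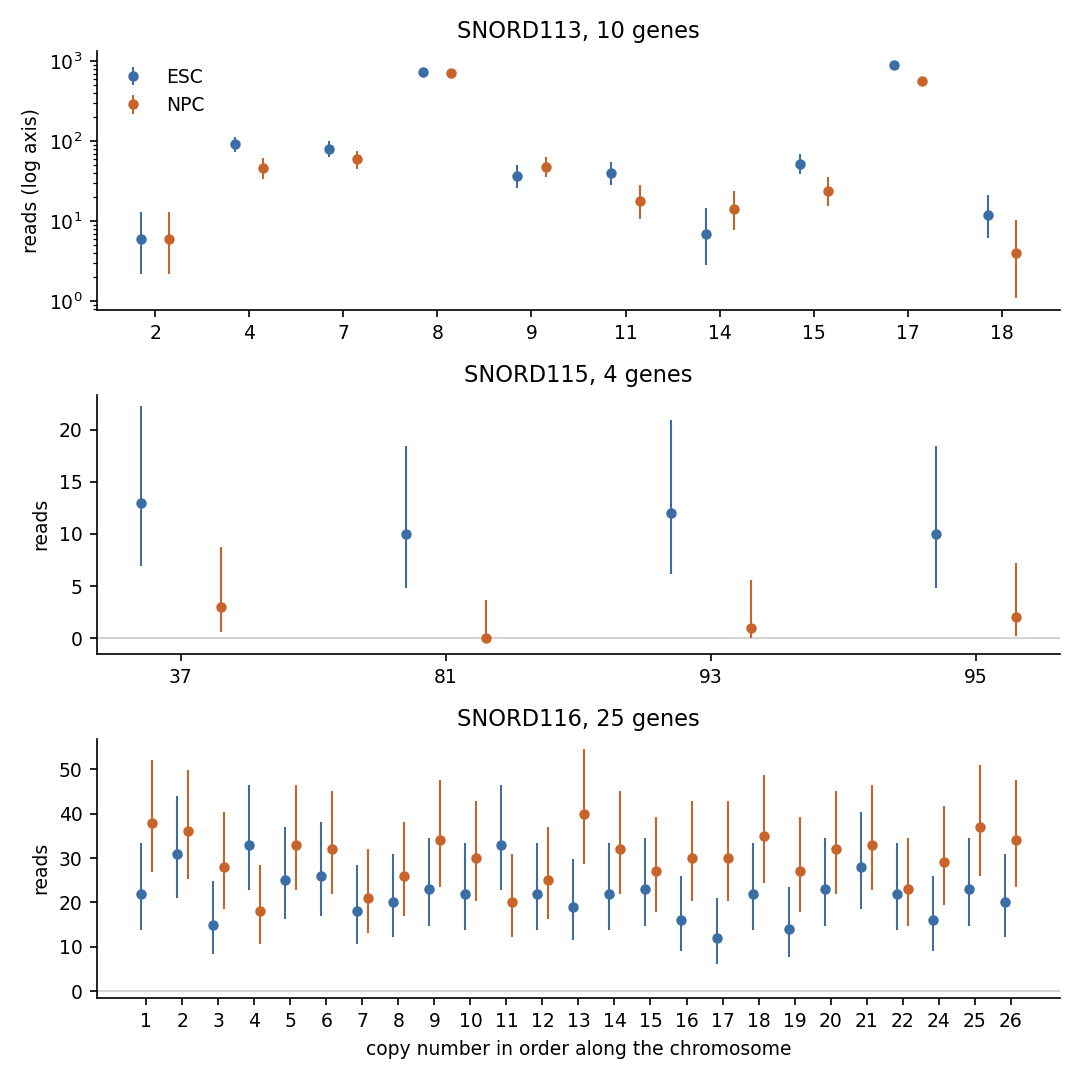
Reads of each SNORD113, SNORD115 and SNORD116 gene of the set (y axis, logarithmic for SNORD113 only) against its copy number along the chromosome (x axis), in blue for ESCs and orange for NPCs, with exact Poisson 95% intervals as bars. SNORD113 copies range from 4 to 901 reads, the SNORD115 genes have 10 to 13 ESC reads and 0 to 3 NPC reads, and the SNORD116 copies lie between 12 and 40 reads.

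Of the 53 genes, 15 lie inside a noncoding gene of another name, 12 of them in introns and 3 in exons. To set the snoRNAs beside their hosts, reads on the exons of each host were counted without those on snoRNA genes. The exons of 2410006H16Rik had 226 reads in ESCs and 75 in NPCs, a ratio of 0.322 (0.245 to 0.420), which is further from 1 than that of its 3 snoRNAs together, 0.560 (0.539 to 0.582). Exons of Gm15832 had 22 and 62 reads, a ratio of 2.74 (1.66 to 4.67), and the interval overlaps that of Snord89. Host and snoRNA had the same direction in both of these genes.

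In Snhg5 and Rian the sums had opposite directions. The exons of Snhg5 had 76 and 109 reads, a ratio of 1.39 (1.03 to 1.89), while its 2 SNORD50 genes had a ratio of 0.742 (0.693 to 0.793), with the limit that SNORD50 reads are shared with other copies. Copy 2, whose reads cannot be told from those of copy 4, sets this sum. Copy 1 had a ratio of 1.59 (1.17 to 2.18), the direction of the exons. Its reads cannot be told from those of the identical copy 5, outside Snhg5, which had a ratio of 0.956 (0.819 to 1.12). The direction of copy 1 therefore depends on how shared reads were placed. The exons of Rian had 358 and 497 reads, a ratio of 1.35 (1.17 to 1.55), against 0.873 (0.796 to 0.957) for the 6 SNORD113 genes inside it. Scaled by the median of ratios, the exon ratios were 1.10 for Snhg5, with a lower bound of 0.814, and 1.07 (0.928 to 1.22) for Rian, and both intervals then held 1, while those of the snoRNAs stayed below 1. Polyadenylated host RNA was depleted from this fraction, and the exon reads describe what remained. The hosts 9430037G07Rik, 9330159M07Rik and Gm17683 had at most 7 exon reads in a library, although SNORD50 copies 4 and 5, in the last 2, had 1899 and 337 ESC reads.

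**Figure D4:**
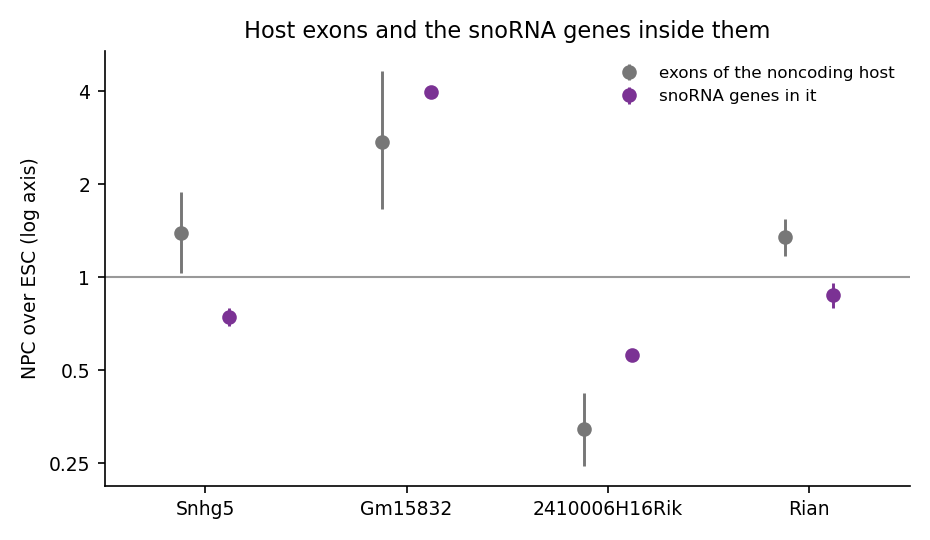
Ratio of NPC to ESC RPM (log axis) for the exons of 4 noncoding hosts, in grey, and for the snoRNA genes of the set inside them, in purple, with bars for 95% counting intervals. The pairs lie on the same side of 1 for Gm15832 and 2410006H16Rik and on opposite sides for Snhg5 and Rian.

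Reads of the set began at a fixed place. The start used most often lay 5 bases before box C in 48 of the 53 genes in ESCs and in 46 of the 52 with reads in NPCs. Without the near-identical SNORD115 and SNORD116 copies it did so in 19 of 24 genes in ESCs and 18 of 24 in NPCs, and the mean share of reads at that base was 71.3% and 65.7%. Within 1 base of this place began 95.7% (95.4 to 96.0%) of the reads in ESCs and 94.3% (94.0 to 94.6%) in NPCs. Among the 52 C/D snoRNA genes inside protein-coding genes that hold TGATGA in their first 20 bases, the same place was the most used in 33 in ESCs and 35 in NPCs. The mean share at that base was 56.3% and 55.0%. Within 1 base of it they had 93.5% and 91.1% of their reads. This distance was measured after the starts had been seen. The starts are those of the 48 deposited bases, and the paper aligned longer reads. Whether the RNA begins further upstream than the deposited start was not tested.

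The exceptions were few. Snord49a, Snord65 and Snord123 began most often 4 bases before box C in both libraries. In ESCs 105 reads of Snord65 began there and 102 at the common place 5 bases before box C, and Snord123 rests on 2 of 4 and 5 of 9 reads. In Snord49a 81.3% of the ESC reads began 4 bases before box C, at base 2 of the gene, and 14.6% at base 1. Snord49b reads began most often at base 27, with 9 of 19 reads in ESCs and 15 of 27 in NPCs, and 18 and 26 of them began after base 15. SNORD113 copy 18 has overlapping TGATGA motifs, and its reads began 5 bases before the second one in ESCs. SNORD113 copy 2 had only 6 NPC reads, with 2 at the most frequent start.

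Measured from the annotated 5′ end instead, 82.9% (82.4 to 83.4%) of the ESC reads and 56.3% (55.7 to 56.9%) of the NPC reads began within 3 bases of it. Snord89 began mostly at base 5 of the annotated gene, in 95.1% of its reads in ESCs and 94.6% in NPCs. Without Snord89 the shares within 3 bases were 93.3% (92.9 to 93.6%) and 89.6% (89.1 to 90.1%). Within 5 bases of the annotated end the shares were 96.3% and 94.7%. Summed over the set, fewer reads lay beside the genes than in them. The 200 bases upstream of all 53 genes together held 308 ESC and 254 NPC reads and the 200 bases downstream 358 and 306, and the opposite strand of the genes held 1 read in ESCs and 0 in NPCs. Single genes differed from these sums. Snord49b had 179 ESC and 58 NPC reads downstream against 19 and 27 in the gene. SNORD113 copy 7, in an exon of Rian, had 36 and 71 downstream against 80 and 59, and SNORD50 copy 1 had 25 and 105 upstream against 69 and 113.

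**Figure D5:**
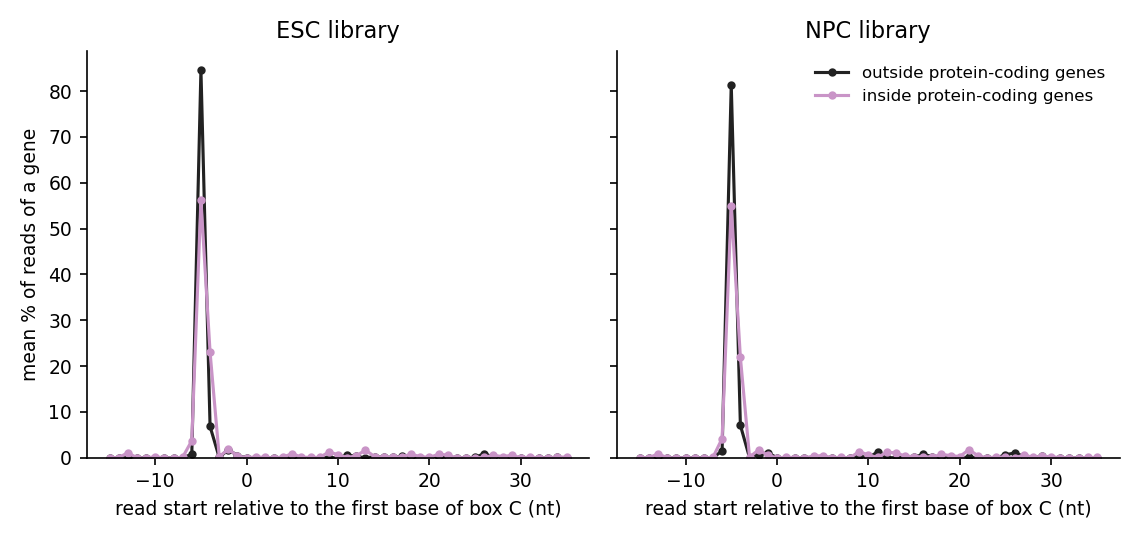
Mean percentage of the reads of a gene (y axis) that begin at each distance from the first base of box C (x axis, in nucleotides), for the ESC and NPC libraries. The black line is the 53 C/D snoRNA genes outside protein-coding genes and the pink line the 52 inside protein-coding genes that hold the motif, and both peak 5 bases before it. The black line includes 25 SNORD116 and 4 SNORD115 copies.

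The genes of the C/D particle and of its assembly did not share 1 direction. Of the 4 particle proteins, Nop58 was more than 2-fold higher in NPCs, with 341 and 737 reads and a ratio of 2.10 (1.84 to 2.39). The methyltransferase fibrillarin (Fbl) had 304 and 424 reads, Nop56 had 3891 and 3134, and Nhp2l1 had 142 and 127. Of 8 assembly factors, only the ATPase gene Ruvbl2 was more than 2-fold apart, with 1052 and 435 reads and a ratio of 0.401 (0.358 to 0.449). Its partner Ruvbl1 had 130 and 207 reads. These mRNAs are polyadenylated, and their reads are those left in the NPA fraction.

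Of 6 imprinted genes on chromosome 12, 5 had at least 10 reads. Of these 5, 3 were more than 2-fold higher in NPCs, where 24.6% of all genes were. They were Mirg with 38 and 86 reads, Dio3 with 2 and 31 and Dlk1 with 2 and 8. The interval of Dlk1, 0.775 to 37.5, held 1. The SNORD113 sum was lower in NPCs. Meg3, at the start of the noncoding region, had 93 and 117 reads. On chromosome 7, 4 of the 5 genes found had at least 10 reads. Ube3a, with 252 and 588 reads, and Ndn, with 17 and 76, were more than 2-fold higher in NPCs, and Snrpn, upstream of both snoRNA arrays, had 152 and 131 reads with an interval of 0.657 to 1.06 that held 1.

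The minimum of 10 reads cuts through the SNORD115 array. With 10 to 12 reads, SNORD113 copy 2 and SNORD115 copies 81 and 95 were just inside, and 13 genes with 7 to 9 reads were just outside, 11 of them SNORD115 genes, 1 SNORD113 and 1 SNORD107. The lowest member outside the arrays was Snord123 on chromosome 15, with 4 ESC and 9 NPC reads and an interval of 0.610 to 9.71.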

How the data were processed

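The study sequenced NPA RNA of mouse ESCs and NPCs on SOLiD 3 after fragmentation with RNase III, with 1 library for each. Per the labels and its methods, the authors mapped reads to mm9 with Bowtie, kept the best placement of reads that fit several places, and removed reads of mitochondrial, ribosomal and repeat sequence. The deposited files give 1 line for each placed read with its position, strand and 48 bases of sequence, and hold no normalized values. The paper gives a longer read for the alignment than these 48 bases. Whether duplicate reads had been removed is not given in the sources used here.

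Reads were counted on a GENCODE M1 gene when at least 1 base overlapped on its strand, and RPM is the count over the library total. A read over several genes counts for each. A gene was called when its RPM differed more than 2-fold with 1 read added to each count. Depth sets the precision, which the intervals give. Sequences were read from the mm9 genome. The counting and interval steps were tested on simulated data. Python 3.11.15, NumPy 2.4.6, SciPy 1.17.1 and Matplotlib 3.10.9 were used.

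Genes were named by rule: the 5 with the most reads in each library, the 5 with the highest ratio in each direction among those with at least 100 reads in a library, all of both imprinted arrays, all in a host with at least 2, those near the minimum, and the listed hosts, particle, assembly and imprinted genes. The value of 1 marker gene is not reported here. The snoRNA genes and all lists were chosen with earlier results of these data known. SNORD12, Snord123, the distance to box C, sums by name, the starts without Snord89, the counts without SNORD115 or SNORD116 and the bases of Snord7 and SNORD50 were picked after values had been seen. Alternatives changed the counting of repeated starts, assignment, repeated sequence, scaling, pseudocount, minimum, host rule, depth and start window.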

Additional observations from a re-analysis of the deposited data

How the results depend on the processing

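No paired analysis was possible because each cell type has 1 library, and for the same reason no replicate could be left out. Counting each start position once lowered the depth most: 14 genes reached the minimum, with shares that turned to 0.0162% in ESCs and 0.0141% in NPCs and 0 genes more than 2-fold higher in NPCs. The log2 ratios then were -0.17 for SNORD113, -1.49 for SNORD115 and 0.091 for SNORD116, against -0.43, -2.95 and 0.40 as reported. Those of Snord89, SNORD113 copy 17 and SNORD50 copy 2 turned to -0.36, 0.21 and 0.0088. Where most reads of a gene share 1 start, this setting compares positions and cannot decide a difference in abundance. Reads within 3 bases of the annotated start made up 33.1% and 36.0%. Scaling by the median of ratios gave a median log2 ratio of -0.15, -0.77 for SNORD113 and 0.066 for SNORD116. With the 5′ end of a read in the gene, the shares were 0.446% and 0.563%.

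With only reads whose sequence occurs once in mm9, there were 22 genes, 8 of them higher in NPCs, with a median of -0.49, shares of 0.355% and 0.458%, and 78.0% and 46.9% of reads near the annotated start. SNORD116 then had no reads and gives no value. A pseudocount of 0.5 gave 5 genes more than 2-fold higher. A minimum of 50 reads left 33 genes, 19 higher and 4 more than 2-fold lower, with shares of 0.472% and 0.568% and no SNORD115 gene. A minimum of 1 read gave 157 genes, 106 lower and 51 higher, 66 and 10 of them more than 2-fold, a median of -0.63 and -1.52 for SNORD115. These genes include the SNORD115 copies with few reads. All 137 SNORD115 copies, 43 of them with 0 reads, summed to 281 ESC and 101 NPC reads. No share over all genes was computed at these other minimums, so their counts have no background to be set against. Sums by name, added after the data had been seen, gave a median of -0.40, and all copies of SNORD115, also added, -1.52. Within 1 base of the annotated start were 68.9% and 46.4%, and within 5 bases 96.3% and 94.7%. The other 75 summary values moved by less than the tolerance. Of 165 values for 24 named genes, 134 stayed within their counting interval and 28 moved outside it. A further 3, whose interval had excluded a ratio of 1, changed direction. Some genes whose interval held 1 also changed direction, and these are counted among the 134 and the 28. Counting each start position once gave 12 of the 28 and all of the 3. The cause of these shifts was not tested beyond what each setting removes.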
